A study of Rattus norvegicus with 3 samples.

Results

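Genes of the cytoskeleton and of its motor proteins were described in a rat time course of 3 expression arrays, with a single array at 0.0 h, at 0.1 h and at 1.0 h. The members were chosen by gene symbol alone, as the actins with a number in their symbol, actinins, thymosins, profilins, cofilins, tropomyosins, myosins, tubulins, microtubule-associated proteins, stathmins, dyneins, kinesins, Lis1 genes, neurofilaments, desmin and keratins. This gave 92 of the 4736 genes that have a probe set of their own, read from 149 probe sets. Every sample is labelled with both pineal gland and adrenal medulla as its tissue, and total RNA was hybridised. The labels give no treatment, strain, age or number of animals. Besides a sample number, they set the 3 groups apart only by time. Differences in tissue, animals or hybridisation therefore cannot be told apart from the time label. With 1 array per label there was no replicate, and no difference below has a test or an error across samples. Values are the deposited linear intensities after each array was scaled to a common median, in arbitrary units. A gene with several probe sets was read from its brightest, and a value was called measured when it lay above an intensity floor of 262.9, the 40th percentile of all values.

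The cytoskeleton of an animal cell is built from actin filaments, microtubules and intermediate filaments. Myosins pull on actin, while kinesins and cytoplasmic dynein carry cargo along microtubules in opposite directions. The pinealocyte, which makes melatonin, and the adrenal chromaffin cell, which makes catecholamines, both bear processes or granules that depend on this transport. Muscle actins, muscle myosins and desmin mark contractile cells, neurofilaments mark neurons, and most keratins mark epithelia.

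The pinealocyte markers were measured on these arrays, with 6 of 7 above the floor on all 3 and none below it on all 3. Of 9 chromaffin cell markers, 5 were above the floor on all 3 arrays, namely Pnmt, the enzyme that makes adrenaline, Chgb, Scg2, Npy and Penk. The other 4, Th and Dbh of catecholamine synthesis and the vesicle transporters Slc18a1 and Slc18a2, were below it on all 3. Of the 92 members, 56 (60.9%) were above the floor on all 3 arrays, against 61.6% of all genes. Another 8 were above it on 1 array, 4 on 2 arrays and 24 (26.1%) on none, against 7.88%, 6.67% and 23.9% of all genes. In RNA from whole tissue, fewer cells of a type and less RNA per cell cannot be told apart.

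Most of the cytoskeletal genes lay close together on the 3 arrays. Between 0.1 h and 0.0 h, Tpm1 and Tubg1 were at least 2-fold higher, 2 of 57 measured members, against 5.65% of all genes, and 2 were at least 2-fold lower, Myl6 and Tubgcp6, against 4.71%. Between 1.0 h and 0.0 h, 1 of 59 was at least 2-fold higher, Nefh, against 2.41% of all genes, and 2 were at least 2-fold lower, Actc1 and Pafah1b1, against 2.61%. Between 1.0 h and 0.1 h, 2 of 56 were at least 2-fold higher, Tuba4a and Tubgcp6, against 4.11%, and 3 were at least 2-fold lower, Actc1, Pafah1b1 and Tpm1, against 5.03%. The shares of members in these counts were 3.51%, 3.51%, 1.69%, 3.39%, 3.57% and 5.36%, near those of all genes. In either direction the counts were 4 of 57, 3 of 59 and 5 of 56, or 7.02%, 5.08% and 8.93%, against 10.4%, 5.02% and 9.14% of all genes. Members above 0, whatever the size, were 24 of 57 (42.1%), 31 of 59 (52.5%) and 34 of 56 (60.7%) in the 3 comparisons, against 49.7%, 51.1% and 50.3% of all genes. Each pair of comparisons shares 1 array.

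The median log2 difference of the members was -0.07 between 0.1 h and 0.0 h, against -0.003 over all genes. It was 0.03 between 1.0 h and 0.0 h, against 0.013, and 0.15 between 1.0 h and 0.1 h, against 0.004. The spread of the members' log2 differences, as an SD taken from the median absolute deviation, was 0.39, 0.50 and 0.47 in the 3 comparisons, and that of all genes 0.51, 0.43 and 0.56. When the 9 hybridisation spike-in probe sets were made equal between arrays, which is another choice of scale, the counts of members at least 2-fold higher and lower were 0 and 5, 2 and 1, and 7 and 1 in the 3 comparisons. The medians of all genes then moved to -0.28, 0.21 and 0.47, and the shares of all genes at least 2-fold higher and lower to 2.67% and 10.2%, 5.05% and 1.32%, and 16.8% and 0.986%.

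**Figure D1:**
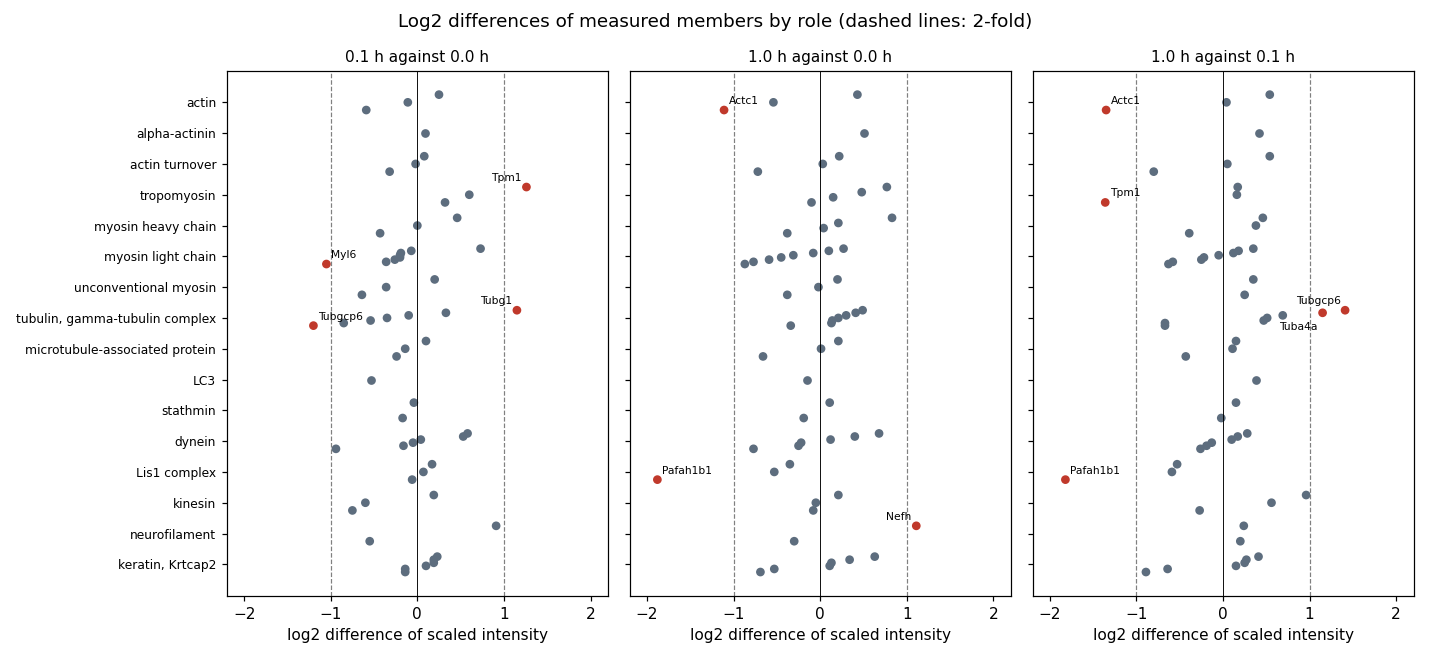
Log2 difference of scaled intensity (horizontal axis) of each measured member, in 1 panel per comparison, with members grouped by role (vertical axis); each point is 1 gene, dashed lines mark 2-fold, and named red points are at least 2-fold apart. Most points lie between the dashed lines, and Pafah1b1 at -1.88 and -1.82 lies farthest out.

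Among members above the floor on all 3 arrays, those with 1 array at least 2-fold away from both others were Tpm1, Tubgcp6, Actc1 and Pafah1b1. Tpm1 was the 1 of 56 higher at 0.1 h than on both others, against 1.58% of all genes. Tubgcp6 was the 1 lower there, against 2.33%, and Actc1 and Pafah1b1 were the 2 of 56 lower at 1.0 h than on both others, against 1.3%. No member was at least 2-fold above or below both others at 0.0 h, against 0.343% and 1.13% of all genes, and none was above both at 1.0 h, against 0.309%. RefSeq promoters (assembly GRCr8) were matched to 75 of the 92 members by gene ID, and these included Actc1, Tpm1 and Tubgcp6. Their sequences from 250 bases before the annotated start to base 20 of the transcript are shown on the gene's strand. They are shown because these members had 1 array at least 2-fold away from both others. Pafah1b1 did as well, but it was not among the matched members. Capitals mark the motifs that were searched on both strands. These were the TATA box (TATAAA), the CCAAT box, the GC box, spelled GGGCGG, the cyclic AMP response element or CRE, spelled TGACGTCA, and the CArG box, which serum response factor binds in muscle genes. Actc1 lies at chr3:121271808-121272077, Tpm1 at chr8:76543396-76543665 and Tubgcp6 at chr7:122078272-122078541, all on the minus strand.
Actc1: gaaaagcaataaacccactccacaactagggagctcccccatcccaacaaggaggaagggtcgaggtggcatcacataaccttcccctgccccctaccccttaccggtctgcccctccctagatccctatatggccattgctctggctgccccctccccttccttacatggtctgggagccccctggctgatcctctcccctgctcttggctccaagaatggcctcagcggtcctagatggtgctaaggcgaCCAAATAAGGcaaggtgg
Tpm1: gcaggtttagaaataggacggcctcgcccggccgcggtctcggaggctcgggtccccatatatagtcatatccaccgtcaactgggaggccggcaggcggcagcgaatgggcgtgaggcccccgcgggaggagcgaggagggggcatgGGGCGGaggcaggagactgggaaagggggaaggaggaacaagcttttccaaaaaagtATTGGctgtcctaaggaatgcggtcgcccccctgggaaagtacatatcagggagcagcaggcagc
Tubgcp6: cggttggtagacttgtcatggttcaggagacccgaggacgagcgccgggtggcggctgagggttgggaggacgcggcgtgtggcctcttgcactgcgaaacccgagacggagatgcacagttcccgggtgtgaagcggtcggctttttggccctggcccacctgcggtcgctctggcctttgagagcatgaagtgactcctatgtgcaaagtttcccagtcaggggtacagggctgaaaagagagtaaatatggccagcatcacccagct

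The Actc1 stretch holds a CArG box at positions 3 to 12 of the annotated transcript. The Tpm1 stretch holds a GC box at -102 to -97 and, read on the opposite strand, a CCAAT box at -45 to -41. None of the 5 motifs was found in the Tubgcp6 stretch. Over the whole promoter windows of 300 bases, a CArG box was found in 7 of 75 members (9.33%), against 1.64% of 33469 promoters of the same length. The 33469 were all promoters of the source, and not only those of genes on the array. The GC box was found in 40 of 75 (53.3%) against 33.1%, CCAAT in 27 (36.0%) against 37.5%, TATAAA in 13 (17.3%) against 14.2%, and the CRE in 1 (1.33%) against 1.83%. A match is a description of the letters and not a binding site. The members with a CArG box are shown with 15 bases to each side, cut at base 20 of the transcript, because they include 3 of the actin genes described below, and Myl6 is shown for its CRE. Capitals mark the motif.
Acta1, chr19:68784264-68784303: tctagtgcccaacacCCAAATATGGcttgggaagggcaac
Actc1, chr3:121271808-121271840: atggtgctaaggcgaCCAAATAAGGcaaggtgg
Actg1, chr10:106121017-106121056: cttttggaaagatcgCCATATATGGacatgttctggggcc
Kif6, chr9:18870999-18871038: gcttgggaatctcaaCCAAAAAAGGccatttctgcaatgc
Myh4, chr10:52422015-52422054: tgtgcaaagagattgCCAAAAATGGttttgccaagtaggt
Myl3, chr8:119616982-119617021: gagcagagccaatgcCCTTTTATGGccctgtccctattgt
Myo1e, chr8:79768717-79768756: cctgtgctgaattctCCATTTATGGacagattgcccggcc
Myl6, chr7:1498349-1498386: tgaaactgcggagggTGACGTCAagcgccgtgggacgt

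Of these CArG box genes, Actc1, Actg1 and Myo1e were measured on all 3 arrays. Acta1 and Myl3 were below the floor on all 3, and Kif6 and Myh4 were above it on 1. The motif thus occurred both in genes that were detected in this RNA and in genes that were not.

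Actins form the thin filaments. Actc1, the cardiac alpha-actin gene, had scaled intensities of 1360.5 at 0.0 h, 1613 at 0.1 h and 631 at 1.0 h, the order kept below. The 1.0 h array was the low one, 2.16-fold lower than 0.0 h and 2.56-fold lower than 0.1 h. Actg1, the cytoplasmic gamma-actin gene, had 5845, 5413 and 7848, a log2 difference of 0.43 between 1.0 h and 0.0 h and of 0.54 between 1.0 h and 0.1 h. Acta2, the smooth muscle alpha-actin gene, was close to the floor with 424, 283 and 291 on its brightest probe set. Its other probe sets were below the floor on all arrays. Acta1, the skeletal muscle gene, was below the floor on all arrays, and Actg2, the enteric smooth muscle gene, was above it at 0.1 h alone with 310.3. The probe sets of Actc1 and Acta2 bear the array maker's mark for probes shared by similar transcripts, and that of Actg1 the mark for probes shared by a gene family, so the signal of one actin may include others.

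Of 16 skeletal muscle markers from outside the members, 2 were above the floor on all arrays and 8 on none, and their summed levels were 4302, 4838 and 4659. The 2 measured on all arrays were lowest at 1.0 h. Pgam2 had 1265, 1651 and 1159, only 1.09-fold lower at 1.0 h than at 0.0 h, and Chrna1 had 510.3, 557 and 328. Other markers were above the floor on 1 or 2 arrays. Of these, Ckm had 147, 477 and 497, Myod1 285, 75 and 452, and Atp2a1 102, 160 and 347, each highest at 1.0 h. Tnni1 had 570, 237 and 522, Chrnd 424, 283 and 175, and Eno3 103, 276 and 258. The smooth muscle and fibroblast markers had 9 of 11 above the floor on all arrays, and summed levels of 86487, 82624 and 93865. Desmin, the intermediate filament gene of muscle, was below the floor on all 3 arrays, as was the smooth muscle marker Cnn1. The part of contractile cells in the actin values was not tested further.

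The beta-actin gene Actb itself is not a member, since its symbol has no number, and its brightest probe set had 11498, 13813 and 11220. The array also carries beta-actin control probe sets along the transcript, which show how far labelling reached from the 3' end. The 3' control had 5948, 10975 and 7699 at 0.0 h, 0.1 h and 1.0 h, the middle control 1048, 2184 and 1612, and the 5' control 572, 615 and 173. The 5' control was below the floor at 1.0 h. The 3' to 5' ratio was 10.4, 17.8 and 44.4, and the last is at least 29.3 when the 5' value is set to the floor. The corresponding GAPDH ratios were 15.3, 18.6 and 14.1. The smallest of all these ratios was 10.4, so signal fell strongly toward the 5' end on all 3 arrays for both controls. The further rise of the ratio at 1.0 h was seen for beta-actin and not for GAPDH. The part of this fall, or of the 1.0 h difference, in the members' values, floor calls and probe set disagreement was not tested.

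**Figure D2:**
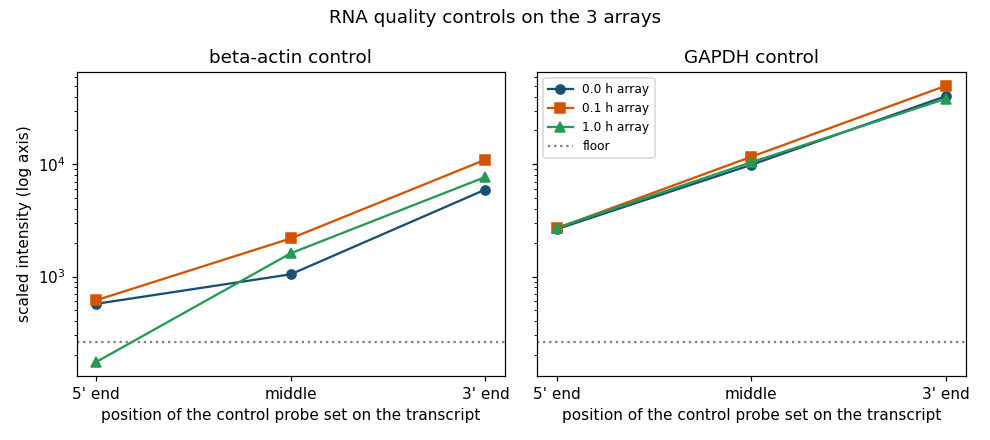
Scaled intensity (log axis) of the 5', middle and 3' control probe sets of beta-actin (left) and GAPDH (right) on the 3 arrays, with 1 line per array and the floor dotted. The beta-actin lines part at the 5' end, where the 1.0 h array has 173 against 572 and 615, while the GAPDH lines lie close together.

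Actin crosslinkers and the proteins that hold or recycle actin monomers stayed within 2-fold on all arrays on which they were measured. Actn4, a nonmuscle alpha-actinin gene, had 297, 316 and 423, and the muscle gene Actn2 was below the floor, as was the Arp2/3 subunit gene Actr2. Tmsb4x, which encodes the monomer-sequestering thymosin beta 4, had 1785, 1883 and 1082 and was 1.65-fold lower at 1.0 h than at 0.0 h. Pfn1, whose product profilin feeds monomers to growing filaments, had 1229, 984 and 1427. Tmsb15b2, another thymosin gene, lay just above the floor with 272, 268 and 278.

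Tropomyosins lie along the actin filament and set which myosins can reach it. Tpm1 had 2541, 6094 and 2368, so the 0.1 h array was the high one, 2.40-fold above 0.0 h and 2.57-fold above 1.0 h. Tpm3 had 4721, 7157 and 8057, and Tpm4 1648, 2055 and 2297, both lowest at 0.0 h. All 3 measured tropomyosins were above 0.0 h at 0.1 h, against 49.7% of all genes, with log2 differences from 0.32 to 1.26. This held under each of the other 4 scalings, with the smallest difference at 0.05 when the arrays were scaled on the spike-ins. Tpm2 went the other way: it had 416, 37 and 463, with the 0.1 h value below the floor. The 0.0 h and 1.0 h values of Tpm2 were at least 1.58-fold and 1.76-fold above the 0.1 h array.

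Both Tpm1 and Tpm3 have 5 probe sets, and these did not all follow the brightest. For Tpm1, 4 of the 5 were higher at 0.1 h than at both other labels in scaled intensity, among them one with 183, 626 and 291 and one with 296, 484 and 398. The fifth, with 45, 172 and 460, was above the floor at 1.0 h alone. For Tpm3, the log2 differences between 0.1 h and 0.0 h were 0.60, 0.76 and 0.81 on 3 measured probe sets and -0.27 on the fourth. The second probe set of Tpm4 had 752, 597 and 223, opposite in direction to the brightest one. The brightest Tpm1 and Tpm3 probe sets bear the mark for similar transcripts. Tropomyosin genes give rise to many spliced forms, and which forms each probe set reads is not given in the sources used here.

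**Figure D3:**
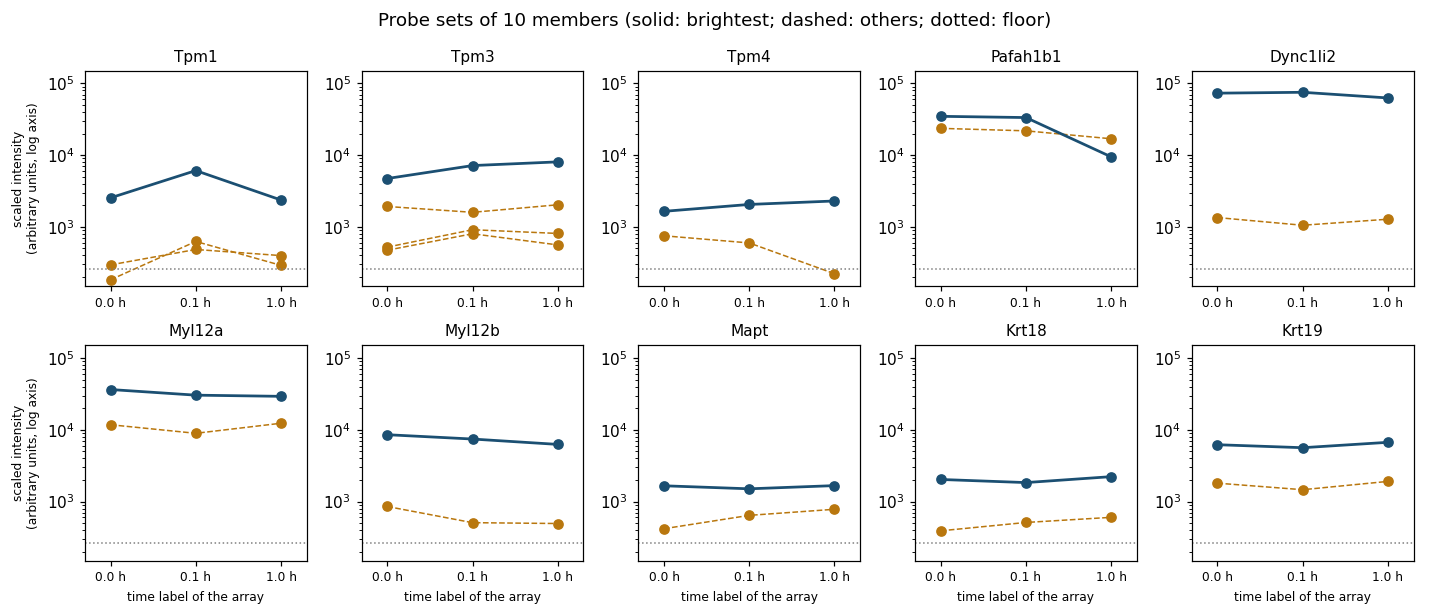
Scaled intensity (log axis) of the probe sets of 10 members on the 3 arrays (horizontal axis), each line being 1 probe set above the floor on at least 2 arrays; the solid line is the brightest and the dotted line the floor. The brightest Tpm1 line peaks at 6094 on the 0.1 h array, and the lines of Pafah1b1 part at 1.0 h, where they have 9458 and 16914.

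Class II myosins pull actin filaments in muscle and in the cortex of other cells. Of 9 heavy chain genes, 3 were above the floor on all arrays and 3 on none. Myh3, the embryonic muscle gene, had 2338, 2346 and 1792, Myh1, a fast muscle gene, 1033, 1418 and 1841, and Myh11, the smooth muscle gene, 1236, 920.2 and 1267. None of these was 2-fold apart on any pair of arrays. Myh7, the slow muscle gene, had 461, 179 and 533, so its 1.0 h value was at least 2.03-fold above the 0.1 h array, which was below the floor. Myh7 was read from a probe set with the mark for a gene family, and its other probe set was below the floor on all arrays. Myh4 was above the floor at 1.0 h alone with 293, and Myh13 at 0.1 h alone with 264. Of the 4 other probe sets of Myh3, 3 were below the floor on all arrays and 1 was above it at 1.0 h alone, with 468. The other probe sets of Myh11 were below the floor on all arrays, and its brightest bears the mark for similar transcripts.

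Among 11 myosin light chain genes, 8 were measured on all arrays. Myl6, a light chain of nonmuscle and smooth muscle myosin, had 1832, 885 and 1005. Its 0.0 h value was the high one, 2.07-fold above 0.1 h and 1.82-fold above 1.0 h. Myl12a and Myl12b, which encode the regulatory chains that switch nonmuscle myosin on when phosphorylated, had 36461, 30435 and 29311, and 8554, 7444 and 6266. Both were highest at 0.0 h and lowest at 1.0 h on their brightest probe sets, which bear the mark for similar transcripts. The other probe set of Myl12a had log2 differences of -0.40 between 0.1 h and 0.0 h and 0.07 between 1.0 h and 0.0 h. Myl6b had 32424, 30852 and 39228, highest at 1.0 h. None of the light chain genes best known from muscle was 2-fold apart on any pair of arrays on its brightest probe set. Myl1 had 328, 543 and 351, Myl2 799.9, 696 and 757. Myl7 had 938, 822 and 551, and Myl11 had 505, 393 and 337. The other probe sets of Myl2 and Myl11 were below the floor on all arrays. The other one of Myl7 had 178, 488 and 135, above the floor at 0.1 h alone. Myl3, Myl4 and Myl9 were below the floor on all arrays. Between 0.1 h and 0.0 h, 7 of 8 light chain genes were below 0 and 1 was above, against 49.7% of all genes above. The median log2 difference was -0.20, and this count of 7 was the same under each other scaling tried.

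Unconventional myosins move vesicles and shape membranes. Myo5b, a vesicle motor, had 4486, 3486 and 4435, and Myo1e 1289, 828 and 988, both lowest at 0.1 h and within 2-fold. Myo1c was below the floor at 0.1 h and Myo9b at 1.0 h, and Myo1a, Myo1d and Myo9a were below it on all arrays.

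Microtubules are built from dimers of alpha and beta tubulin. Tuba4a had 6664, 3686 and 8189.9, so the 0.1 h array was the low one. It was 1.81-fold below 0.0 h, and 1.0 h was 2.22-fold above 0.1 h. Tuba1b had 124365, 97816 and 135626, and Tubb5 10237.9, 7037 and 11320.2, in the same order of the 3 arrays. Tubb2b, a beta tubulin gene of neurons, had 27410.2, 34534 and 21659.9, the opposite order. The beta tubulins were read from probe sets marked as shared by similar transcripts, so signal from other tubulin genes cannot be told apart there.

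Gamma-tubulin and its ring complex seed new microtubules. Tubg1, the gamma-tubulin gene, had 398, 885 and 558 and was 2.22-fold higher at 0.1 h than at 0.0 h. Its 1 probe set also bears the mark for similar transcripts. Tubgcp6, a subunit of the gamma-tubulin ring complex, went the other way, with 1402, 611 and 1620.4. The 0.1 h value was 2.30-fold below 0.0 h and 2.65-fold below 1.0 h. Tubgcp4, another subunit, had 1909, 1781 and 2537, within 2-fold. Between 1.0 h and 0.1 h, 5 of the 7 tubulin and gamma-tubulin complex genes were above 0, against 50.3% of all genes. The median log2 difference of the 7 was 0.51, and Tubb2b and Tubg1 were below 0. The same count of 5 was found under each other scaling tried.

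Microtubule-associated proteins and stathmins stayed within 2-fold. Map2, which marks dendrites of neurons, had 5321, 4509 and 3358 on its brightest probe set, with its other 4 below the floor on all arrays. Mapt, the tau gene, had 1661, 1507 and 1669 on its brightest probe set and 419, 643 and 781 on another. Map1a had 882, 948 and 1020.1, and all probe sets of Map1b were below the floor. Stmn1, whose product binds free tubulin dimers, had 7338, 6515 and 6441, and Stmn4 972, 946 and 1048. Map1lc3a, whose product LC3 coats autophagosomes and which the rule took in by its symbol, had 11942, 8246 and 10755.

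Cytoplasmic dynein carries cargo toward the minus end of microtubules. Its heavy chain gene Dync1h1 had 7000.2, 6251 and 7609.6, and the intermediate chain gene Dync1i1 1425, 1373 and 1200.1. The other intermediate chain gene, Dync1i2, had 5529, 2876 and 3237, with the 0.0 h array high, 1.92-fold above 0.1 h. The light chain genes Dynlrb1, with 7041, 10549 and 11273, and Dynlt1, with 2904, 4182 and 3819, were lowest at 0.0 h. Dync1li2, a light intermediate chain gene, had 73105, 75188 and 62675 on its brightest probe set. A much dimmer probe set of it had 1349, 1054 and 1280. Its log2 differences were of opposite sign between 0.1 h and 0.0 h, at -0.36, and between 1.0 h and 0.1 h, at 0.28. The 6 measured dynein subunits had 3 above and 3 below 0 in each comparison, and their median log2 differences were -0.01, -0.05 and -0.02 in the 3 comparisons. These medians turned to 0.14 between 1.0 h and 0.0 h and 0.45 between 1.0 h and 0.1 h when the arrays were scaled on the spike-ins, where all 6 were above 0 in the latter. Between 1.0 h and 0.0 h the median was 0.02 with cyclic loess normalisation. Between 1.0 h and 0.1 h it was 0.07 as deposited, 0.04 with quantile and 0.02 with cyclic loess normalisation. Dync2h1, of the dynein of cilia, was below the floor on all arrays.

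Pafah1b1 encodes Lis1, which binds dynein and is needed for neuronal migration. It stood farthest apart of the members, with 34769.9, 33415 and 9458 on its brightest probe set. The 1.0 h array was the low one, 3.68-fold below 0.0 h and 3.53-fold below 0.1 h. A second probe set of the gene had 23626, 21824 and 16914, which is lower at 1.0 h as well, with log2 differences of -0.48 and -0.37, and the third was below the floor on all arrays. Pafah1b2 and Pafah1b3 encode the catalytic subunits that form an acetylhydrolase with Lis1. They had 1893, 1983 and 1315, and 1089, 1230 and 854, and were also lowest at 1.0 h. All 3 genes were below both other arrays at 1.0 h, with medians of -0.53 and -0.59. Of all genes, 51.1% were above 0 between 1.0 h and 0.0 h, and 50.3% between 1.0 h and 0.1 h. The 3 genes remained below both under each other scaling tried, where the smallest difference was -0.06.

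Kinesins carry cargo mostly toward the plus end of microtubules or act in cell division. Of 10 kinesin genes 6 were below the floor on all arrays, among them the mitotic genes Kif11, Kif2c and Kifc1. Kif13a had 3864, 2294 and 4471, and Kif3c, a neuronal vesicle motor gene, 3176, 2094 and 3077. Both were lowest at 0.1 h, with Kif13a 1.95-fold higher at 1.0 h than at 0.1 h. Kifc3, a minus-end kinesin gene, had 807, 918 and 762. The other probe sets of Kif3c and of Kifc3 were below the floor on all arrays. Kif6 was above the floor at 0.0 h alone, with 272.

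Neurofilament genes mark neurons with long axons. Nefh, the heavy subunit gene, had 472, 886 and 1020.2, with the 0.0 h array low. It was 1.88-fold higher at 0.1 h and 2.16-fold higher at 1.0 h than at 0.0 h, and its other probe set was below the floor throughout. Nefl, the light subunit gene, had 419.5, 287 and 340.1, highest at 0.0 h. Nefm and Ina were above the floor at 0.1 h alone, with 351 and 346. The high array thus differed among the subunits. Neuronal markers from outside the members had 8 of 14 above the floor on all arrays, with Syt1, Slc17a7, Camk2a, Nrgn and Gria2 below it on all. Their summed levels were 43288, 49455 and 33845, of which Gap43 alone made up 27432, 32526 and 21343. Syn1, Elavl4, Uchl1 and Grin1 were above 0 between 1.0 h and 0.0 h, and the other 4 of the 8 measured were below, with a median log2 difference of 0.06. The part of neurons in the Nefh values was not tested.

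Keratins form the intermediate filaments of epithelia. Krt8 and Krt18, which assemble as a pair in simple epithelia, had 590.1, 675 and 747, and 2034, 1840.5 and 2227. A second Krt18 probe set had 391, 512 and 603, opposite in direction between 0.1 h and 0.0 h. Krt19 had 6203, 5636 and 6700.5, with its other probe set in the same order of arrays. Krt10 had 1327, 1517 and 821, and was 1.85-fold lower at 1.0 h than at 0.1 h, while Krt14 had 603, 705 and 934. Krt4 was above the floor at 0.1 h alone with 567, at least 2.16-fold above both other arrays. Krt36 just passed the floor at 0.1 h, and Krt1, Krt5 and Krt20 were below it on all arrays. Epithelial markers from outside the members had 1 of 4 above the floor on all arrays and summed levels of 995, 879 and 1201, with Epcam and Cldn3 below the floor throughout. Krtcap2, a subunit gene of the oligosaccharyltransferase that the rule took in by its spelling, had 4344, 4671 and 3006.

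**Figure D4:**
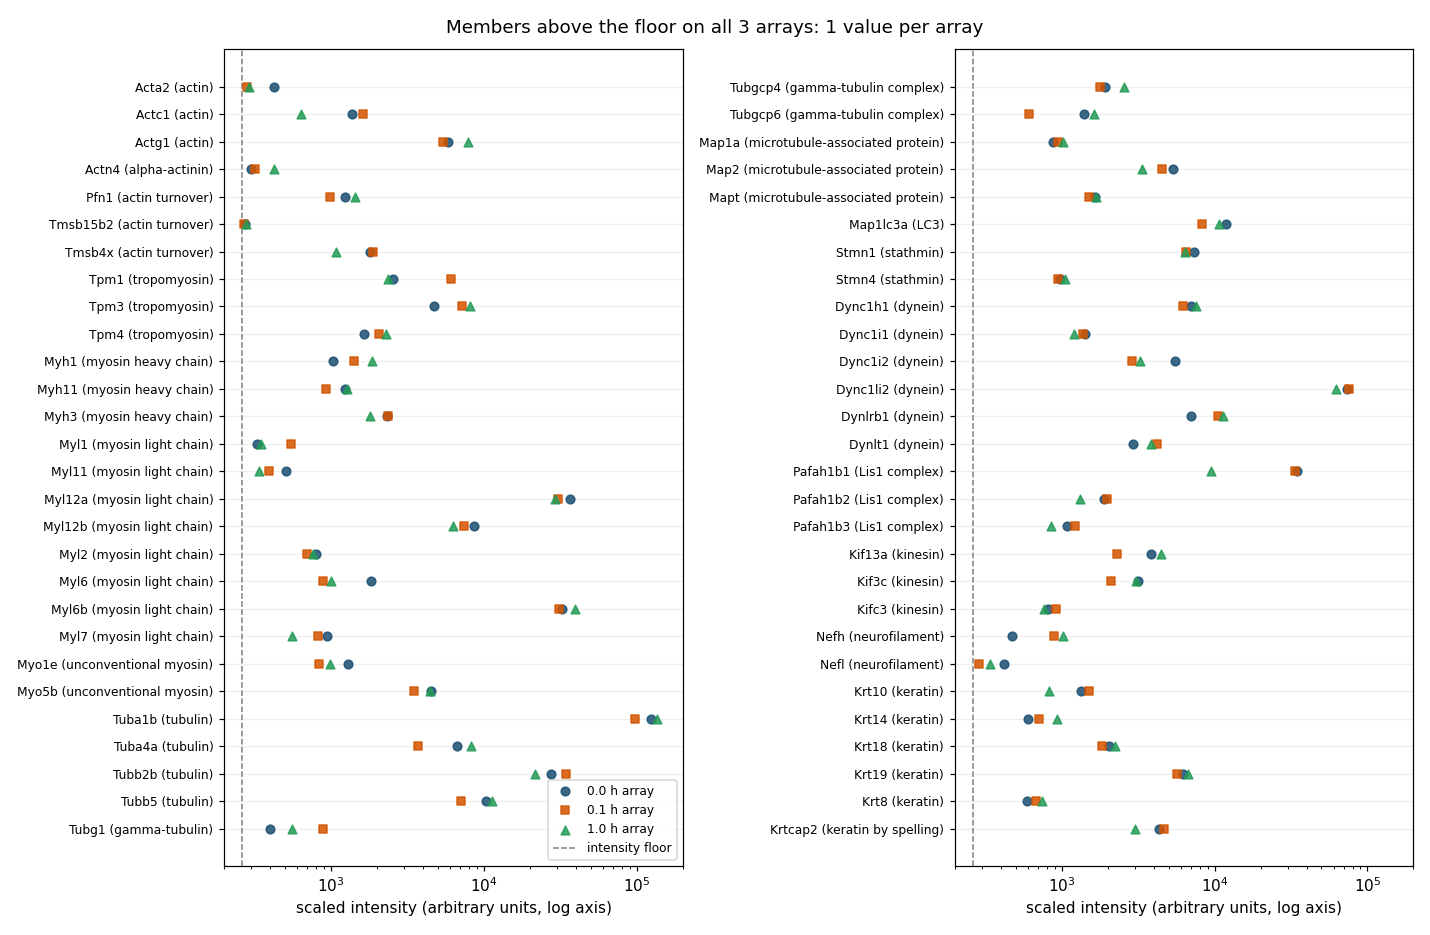
Scaled intensity (log axis) of the 56 members above the floor on all 3 arrays, 1 row per gene with its role, with circles for 0.0 h, squares for 0.1 h and triangles for 1.0 h; the dashed line is the floor of 262.9. For most genes the 3 symbols lie close together, and Pafah1b1, Tpm1, Actc1 and Tubgcp6 have 1 symbol apart from the other 2.

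Without replicate arrays, error between samples could not be measured. Agreement among probe sets of the same gene shows only how probes differ on the same RNA and arrays. Of the members with at least 2 measured probe sets, 5 of 11 had probe sets of opposite sign between 0.1 h and 0.0 h, against 39.1% of all such genes. Between 1.0 h and 0.0 h this was 2 of 9, against 45.4%, and between 1.0 h and 0.1 h 3 of 10, against 41.3%. The median range between probe sets of a member was 0.53, 0.49 and 0.36 on the log2 scale, as large as many of the differences above. Ranges of at least 1 were found for Tpm3 between 0.1 h and 0.0 h, for Pafah1b1 in both comparisons with 1.0 h, and for Tpm1 between 1.0 h and 0.1 h. Of the 8 genes at least 2-fold apart with both arrays above the floor, 3 (Nefh, Pafah1b1 and Tpm1) had more than 1 probe set.

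Related cytoskeletal genes that are not members, both structural genes and regulators, were read from a list of 96. Of these, 61 had a probe set of their own and 42 were above the floor on all arrays. Their medians were 0.02, 0.07 and -0.03 in the 3 comparisons. Between 0.1 h and 0.0 h, 3 of 42 were at least 2-fold higher and 1 lower, against 5.65% and 4.71% of all genes. Between 1.0 h and 0.0 h, 1 of 43 was higher and 1 lower, against 2.41% and 2.61%. Between 1.0 h and 0.1 h, 2 of 43 were higher and 3 lower, against 4.11% and 5.03%. Each of these counts was at most 3 genes, and the genes below are named for their size of difference only. Limk1, a kinase that switches off cofilin, had 1226, 3358 and 1467, with 0.1 h the high array at 2.74-fold above 0.0 h. Cdc42, the GTPase that starts filopodia, had 16083, 38480.1 and 18487, again with 0.1 h high, at 2.39-fold. Tln1, which links integrins to actin, had 2675, 1091 and 2525, with 0.1 h the low array.

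Coro1a, an actin-binding gene of leukocytes, had 451, 918 and 1852, and was 4.11-fold higher at 1.0 h than at 0.0 h. The leukocyte markers had 6 of 12 above the floor on all arrays, with Itgam, Csf1r and Cd8a below the floor throughout. Their summed levels were 7486, 9741 and 9057. These sums include the 451, 918 and 1852 of Coro1a, so they are no separate reading beside it. Of 7 measured between 1.0 h and 0.0 h, 1 was at least 2-fold higher, Coro1a itself, against 2.41% of all genes. Another 1 was lower, against 2.61%, namely Fcer1a with 1271, 699 and 526. Besides Coro1a, Ptprc, Cd74, Lyz2 and Cd14 were above 0 in that comparison, by 0.82, 0.58, 0.28 and 0.22 on the log2 scale. Cd53 was below 0, at -0.34, and the median of the 7, Coro1a included, was 0.28. Between 0.1 h and 0.0 h, Ptprc and Coro1a were at least 2-fold higher, 2 of 7 measured, against 5.65% of all genes. None was at least 2-fold lower, against 4.71%, and the median was 0.6. Sptan1, the spectrin gene of the membrane skeleton, had 849, 686 and 371, and was 2.29-fold lower at 1.0 h than at 0.0 h. Pak2, a kinase downstream of Cdc42, had 29518, 40840 and 16799, and was 2.43-fold lower at 1.0 h than at 0.1 h.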

How the data were processed

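The series holds 3 arrays with 1 deposited linear intensity per probe set. How background was corrected and probes were summarised is not given in the sources used here. Means of the deposited intensity values without the highest and lowest 2% were 2503.7, 2503.9 and 2503.7, so the arrays had been scaled before deposit. Of 8799 probe sets, 59 controls were left out, 7006 had 1 platform symbol, 308 several and 1426 none. Of the 92 members, 90 were matched by gene ID to RefSeq (GRCr8), which changed 0 symbols.

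Values were taken to log2 and shifted to equal array medians, a floor was put at the 40th percentile, and arrays were shifted again to equal medians above it (in all by 0.008, 0.04 and -0.048). The floor left 5140, 5289 and 5319 probe sets. Differences were taken where both arrays were above the floor, and the call was 2-fold. The number of arrays limits the precision. Named were members at least 2-fold apart, the 2 brightest of each role, those above the floor on 1 or 2 arrays and those whose probe sets differ by at least 2-fold; others were added to complete a role. Members, lists and alternatives were chosen with earlier results of these data known. Alternatives used other scalings (limma 3.58.1 in R 4.3.3 for cyclic loess), floors and probe sets. Figures were drawn with matplotlib 3.10.9.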

Additional observations from a re-analysis of the deposited data

How the results depend on the processing

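The values as deposited, quantile and cyclic loess normalisation and the members without LC3 genes, or without Map1lc3a and Krtcap2 (chosen after seeing the data), moved no median of the members by 0.1 or more and no count at least 2-fold apart by over 1.5 times; the median between 1.0 h and 0.0 h was -0.02 with quantile and with loess normalisation. Scaled on the spike-ins, the medians were -0.35, 0.23 and 0.62 between 0.1 h and 0.0 h, 1.0 h and 0.0 h, and 1.0 h and 0.1 h; the counts at least 2-fold higher were 0, 2 and 7, and those lower 5, 1 and 1 (all genes: 2.67%, 5.05% and 16.8% higher, 10.2%, 1.32% and 0.986% lower). At a floor of the 20th percentile, 5 were higher and 4 lower at 0.1 h than at 0.0 h, and 5 lower at 1.0 h than at 0.1 h (all genes: 7.03%, 7.74% and 6.89%). At a floor of the 60th percentile, 1 was higher and 1 lower at 0.1 h than at 0.0 h, 0 higher and 1 lower at 1.0 h than at 0.0 h, and 1 higher at 1.0 h than at 0.1 h (all genes: 4.51%, 4.41%, 1.47%, 2.2% and 3.48%). With all probe sets of a gene averaged, 1 was higher at 0.1 h and 0 at 1.0 h than at 0.0 h (all genes: 5.03% and 2.36%). On second-brightest probe sets, 8 or 9 members were measured, the medians were -0.27 between 0.1 h and 0.0 h and 0.28 between 1.0 h and 0.1 h, and every count was 0 (all genes: 8.96%, 3.96% and 1.39% higher, 1.24%, 1.98% and 5.31% lower). Stricter floors and second probe sets leave fewer members, and the cause of the other shifts was not tested.

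Single genes fell under 2-fold in some of these. With averaged probe sets the log2 difference of Nefh between 1.0 h and 0.0 h was 0.39, and that of Tpm1 between 1.0 h and 0.1 h -0.43. Scaled on the spike-ins, Actc1 had -0.91 and -0.88, Tpm1 0.99 and -0.89, and Tubg1 0.88. On second-brightest probe sets Pafah1b1 had -0.48 and -0.37, and Tpm1 0.71 and -0.28. No sign of these genes turned. No paired analysis was possible because each time label has 1 array.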

Other observations

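Another 27 probe sets carry several gene symbols of which at least 1 matches the rule for the members, and they entered no comparison above, since their signal cannot be assigned to 1 gene. Of these, 19 were above the floor on all 3 arrays. Their median log2 differences were -0.05 between 0.1 h and 0.0 h, -0.01 between 1.0 h and 0.0 h and -0.14 between 1.0 h and 0.1 h. At least 2-fold apart were 1 higher and 1 lower in the first comparison, 1 lower in the second and 1 lower in the third, with the lowest at -2.08 between 1.0 h and 0.1 h.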
